A study of Homo sapiens with 16 samples.

Results

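Interferon-stimulated genes (ISGs) were followed in MDA-MB-231 cells, a human breast carcinoma line, by RNA-seq. The list held 46 ISGs, chosen with earlier results of these data known, so no pattern in them is independent support. Of these genes, found by symbol, 45 reached an expression of at least 1 FPKM (fragments per length of gene, scaled to the reads of the library) in at least 4 of the 16 libraries. The deposited table held 19468 genes, of which 12604 passed the same filter. CMPK2, which makes nucleotides in mitochondria, was the member that failed it, with under 1 FPKM in every library and 8 to 65 reads. CMPK2 averaged 0.674 ± 0.154 FPKM in ancestral and 0.446 ± 0.265 in soft-selected libraries on soft ECM, and 0.639 ± 0.141 in ancestral and 0.366 ± 0.162 in stiff-selected libraries on stiff ECM (SD, n = 4). The selected libraries overlapped the ancestral ones on both ECMs, and no test of CMPK2 is given.

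There were 4 groups of 4 libraries, all of wild-type cells. Ancestral cells, the starting population, were measured on soft and on stiff extracellular matrix (ECM). Soft-selected and stiff-selected cells had first been passaged for 75 days on soft or on stiff ECM and were measured on the ECM of their selection. The ECM was polyacrylamide gel carrying type I collagen, with a Young's modulus of 1 kPa for soft and 308 kPa for stiff, although 3 kPa appears in the sample names of stiff-selected libraries and in every stiff column heading. The sources do not say whether the 4 libraries of a group came from separate cultures or selected lines, so p-values measure the spread between these libraries. Ancestral and selected libraries carried names of different library projects, so that the project and selection cannot be told apart. Both comparisons of soft with stiff ECM lie within a project, but that of selected cells sets 2 populations as well as 2 ECMs against each other.

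ISGs are genes whose transcription rises when a cell senses interferon. Interferon receptors activate the kinases JAK1 and TYK2, and this leads to the complex ISGF3, which holds STAT2 and IRF9 and binds interferon-stimulated response elements in promoters. ISG products sense viral nucleic acids, block translation or replication of viruses and switch the response off again, and some tumour cells keep ISGs on without added interferon.

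The question of each comparison was whether selection, or the stiffness of the ECM, went with a different level of these genes. Tests used limma on log2(FPKM + 1), adjusted over all 12604 genes by the Benjamini-Hochberg method, and a gene was called at an adjusted p under 0.01. In soft-selected cells 20 of the 45 ISGs were higher and 2 lower than in ancestral cells on soft ECM, where 21.5% of all genes tested were higher and 15.4% lower (36.9% in either direction). In stiff-selected cells 15 were higher and 1 was lower than in ancestral cells on stiff ECM, beside 18.4% of all genes higher and 10.8% lower (29.1% in either direction). The median log2 fold change of the 45 ISGs was 0.20 on soft ECM and 0.19 on stiff ECM, against 0.04 and 0.05 over all genes tested. Both selected populations were higher in 14 ISGs, which were DDX58, DDX60, DDX60L, IFI16, IRF9, IFIT1, IFIT2, IFIT3, OAS2, OASL, USP18, SP100, IFI44 and IFI44L. How many of all genes were higher in both was not counted, so these 14 have no background share beside them.

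The background shares depended on scaling. Of all genes called in stiff-selected cells, 63.0% were higher with FPKM as deposited, 54.6% after quantile normalization and 47.8% with voom on reads recovered from the FPKM. On soft ECM 58.2% were higher with FPKM as deposited, 54.7% after quantile normalization and 48.7% with voom. Between ancestral cells on soft and stiff ECM 66.1% of the calls were higher on soft with FPKM as deposited, 49.6% after quantile normalization and 51.4% with voom. Between the selected populations 59.8% were higher in soft-selected cells with FPKM as deposited, 46.9% after quantile normalization and 52.5% with voom. No ISG call turned its direction under any of the 24 alternatives, which all reuse the same libraries, but 21 of 57 calls were lost under at least 1.

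Markers of the line were present, with vimentin (VIM) at 1939 to 2433 FPKM and the estrogen and progesterone receptor genes ESR1 and PGR below 0.1 FPKM in every library. ERBB2, EPCAM and GATA3, listed as low in this line, were present at 36.3 to 43.1, 7.04 to 14.1 and 5.08 to 15.4 FPKM. GATA3 fell by 1.08 ± 0.10 (SE, adjusted p = 1.41e-07) in soft-selected and by 0.78 ± 0.10 (adjusted p = 8.66e-06) in stiff-selected cells, and of the 6 markers expressed by the line CAV1 and CD44 were called lower in both. Recovered reads ranged from 34284794 to 44279020 in selected libraries and from 43475904 to 55473023 in ancestral libraries. The 25th percentile of FPKM, a sign of how the low end of a library is filled, also moved with the groups. It was 0.0603 to 0.0696 FPKM in ancestral libraries on soft ECM and 0.0423 to 0.0469 on stiff, 0.0923 to 0.102 in soft-selected and 0.0578 to 0.0808 in stiff-selected libraries, and its part in the ISG results was not tested. The 8 leukocyte markers summed to 8.32 to 9.65 FPKM in ancestral cells on soft ECM and 5.74 to 6.53 on stiff, and to 8.10 to 9.84 in soft-selected and 6.09 to 8.66 in stiff-selected cells. Most of that sum was CSF1R and CD14, while PTPRC, CD3E and ITGAM stayed below 0.1 FPKM in every library. The 3 leukocyte markers that passed the filter were called in both selected populations. CSF1R was higher by 0.48 ± 0.08 and 0.58 ± 0.08 and FCER1G by 0.57 ± 0.15 and 0.59 ± 0.15, and CD14 fell by 1.33 ± 0.16 and 0.67 ± 0.16 (SE) in soft-selected and stiff-selected cells. The 5 endothelial markers summed to 2.32 to 2.46 FPKM in ancestral cells on soft ECM and 1.47 to 1.81 on stiff, and to 1.22 to 1.83 in soft-selected and 0.762 to 1.58 in stiff-selected cells. The part of these markers in the ISG results was not tested.

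Libraries of 1 group were not equal in their ISG levels. Soft-selected replicate 2 was the lowest of its group in 25 of the 45 ISGs and replicate 4 the highest in 24. Stiff-selected replicate 3 was the lowest in 27 and replicate 4 the highest in 24, and ancestral on stiff replicate 1 was the highest in 24. With soft-selected replicate 2 and stiff-selected replicate 4 both left out, soft-selected cells had 21 ISGs higher and 2 lower, and stiff-selected cells had 13 higher and 3 lower. The median log2 fold change of the ISGs in soft-selected cells was 0.36 without soft-selected replicate 2, against 0.20 with it. In these bulk libraries, more cells with an ISG message and more message per cell cannot be told apart.

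**Figure D1:**
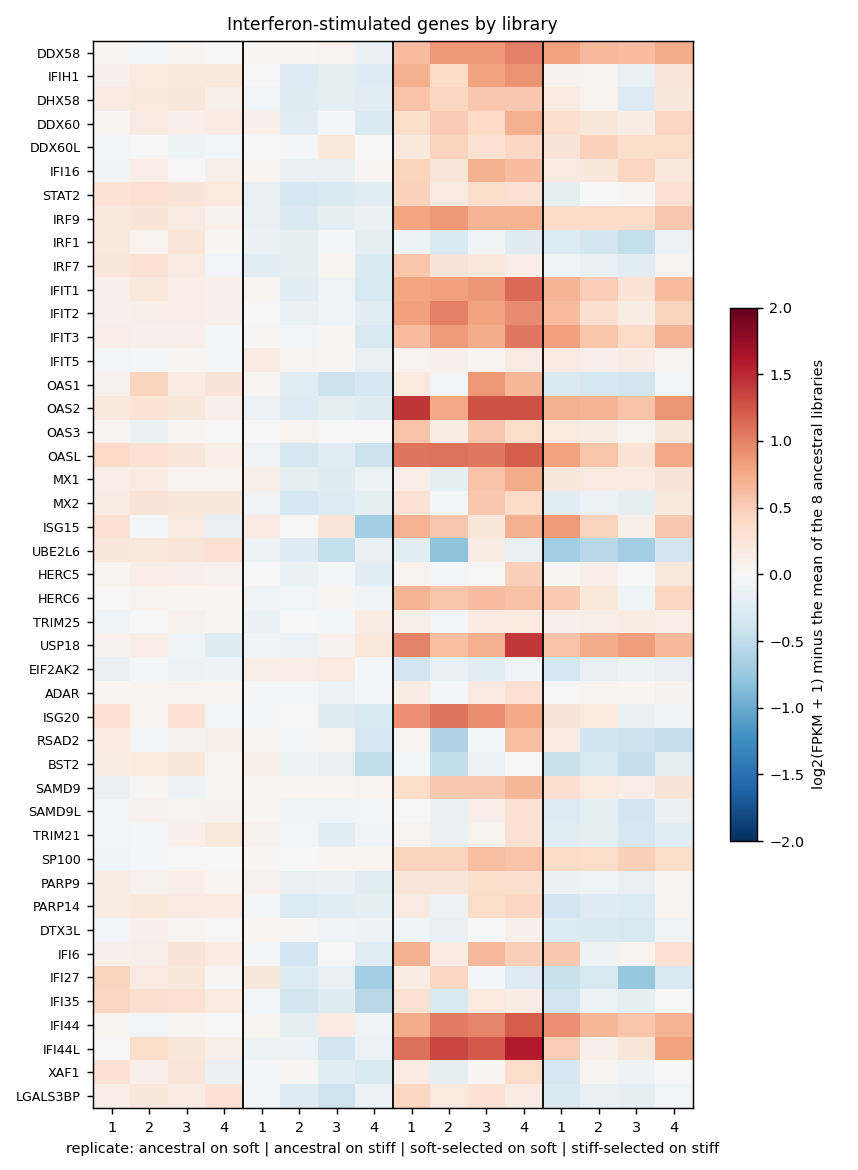
Level of the 45 ISGs in each of the 16 libraries, as log2(FPKM + 1) minus the mean of the 8 ancestral libraries of that gene, with red for higher and blue for lower; rows follow the roles of the genes and vertical lines part the 4 groups. DDX58, IRF9, IFIT1, IFIT2, IFIT3, OAS2, OASL, IFI44 and IFI44L are red in soft-selected libraries and, more weakly for several of them, in stiff-selected libraries, while IFIT5, TRIM25 and ADAR stay pale in all 16.

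The promoters of called ISGs were set beside those of ISGs that were not called, since the response element bound by ISGF3 can be read in them. Promoter windows of 300 bases (250 before and 50 after the start) came from RefSeq on GRCh38.p14 and were found for 39 of the 46 listed genes, with DDX58 under its present name RIGI. DHX58, IRF7, IFIT2, OAS2, OASL, MX2 and USP18 had no entry. The letters searched were GAAA, any 2 bases and GAAA again, the core of the response element, on both strands, so that TTTC, any 2 bases and TTTC also counts. A stretch around the matches is shown for 12 genes, read 5′ to 3′ on the gene's own strand and ending before the start, with the matching letters in capitals. The first 7 belong to genes called higher in soft-selected cells, the next 2 to genes called higher on soft ECM in other comparisons, and the last 3 to genes that were called in no comparison.
IFIT1: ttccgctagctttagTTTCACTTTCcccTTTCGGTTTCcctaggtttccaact
IFIT3: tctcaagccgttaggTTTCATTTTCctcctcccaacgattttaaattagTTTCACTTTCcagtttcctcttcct
IFI44: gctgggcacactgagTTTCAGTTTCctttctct
IFI44L: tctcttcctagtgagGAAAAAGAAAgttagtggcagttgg
DDX60: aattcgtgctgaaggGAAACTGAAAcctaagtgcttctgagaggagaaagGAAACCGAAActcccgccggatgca
SAMD9: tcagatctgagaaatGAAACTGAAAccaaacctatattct
ISG20: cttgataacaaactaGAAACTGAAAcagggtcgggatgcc
LGALS3BP: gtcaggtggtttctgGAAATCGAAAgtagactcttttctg
PARP14: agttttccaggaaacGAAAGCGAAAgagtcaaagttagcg
IFIT5: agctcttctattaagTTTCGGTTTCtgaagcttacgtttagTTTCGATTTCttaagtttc
ISG15: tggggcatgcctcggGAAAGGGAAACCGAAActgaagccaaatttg
BST2: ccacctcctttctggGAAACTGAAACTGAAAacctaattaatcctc

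These stretches lie at chr10:89392492-89392544 (plus strand), chr10:89327826-89327899 (plus strand), chr1:78649756-78649788 (plus strand), chr1:78620360-78620399 (plus strand), chr4:168318781-168318855 (minus strand), chr7:93118091-93118130 (minus strand), chr15:88638932-88638971 (plus strand), chr17:78979957-78979996 (minus strand), chr3:122680795-122680834 (plus strand), chr10:89414508-89414567 (plus strand), chr1:1013369-1013414 (plus strand) and chr19:17405730-17405775 (minus strand), in the same order, all upstream of the transcription start. Of the 39 ISG promoters 24 (61.5%) held the core, against 4.38% of the 27305 genes in the RefSeq table. The core was found in 10 of 16 promoters of ISGs higher in at least 1 selected population (62.5%) and in 14 of 22 of the tested ISGs higher in neither (63.6%). DHX58, IFIT2, OAS2, OASL and USP18 were called higher but had no entry, so the first share leaves them out. IRF7 and MX2 are left out of the second. The shares therefore cannot say how the core was spread over all called ISGs. IFIT1 and IFIT5, called and not called, both held the core in the stretches shown. A match describes the letters in this window and is not a measured binding site.

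**Figure D2:**
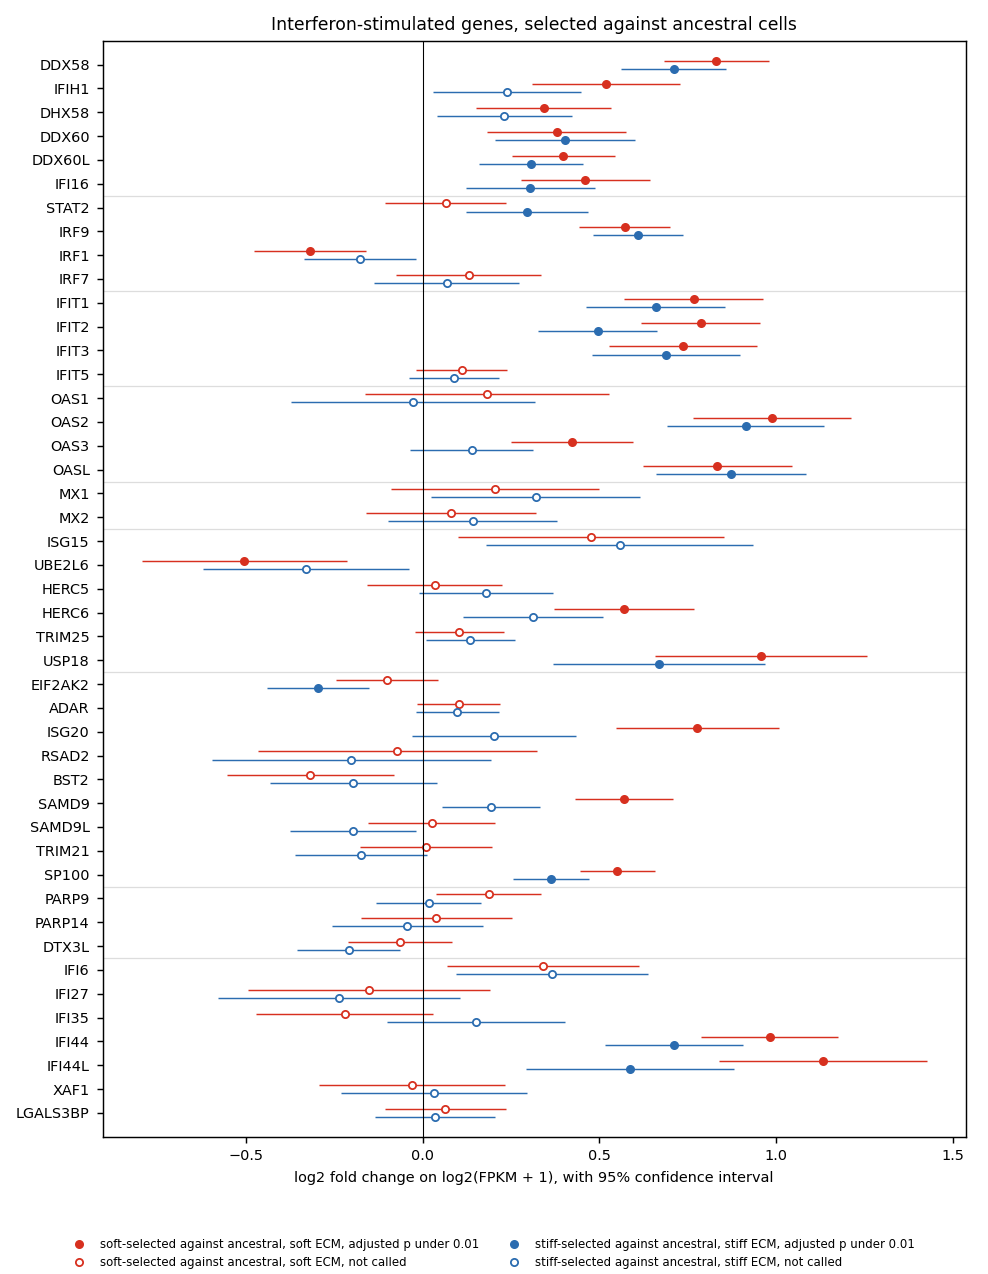
Log2 fold change on log2(FPKM + 1) of the 45 ISGs, with 95% confidence intervals from limma, for soft-selected against ancestral cells on soft ECM (red) and stiff-selected against ancestral cells on stiff ECM (blue), 4 libraries a group; filled points are calls at an adjusted p under 0.01. The values run from -0.50 to 1.13 on soft and from -0.33 to 0.91 on stiff ECM, and IFIT1 to IFIT3, OAS2, OASL, IFI44 and IFI44L lie to the right in both.

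Of the 6 sensors of foreign or misplaced nucleic acid, all 6 were called higher in soft-selected cells and 4 in stiff-selected cells, beside 21.5% and 18.4% of all genes. DDX58 encodes RIG-I, which binds RNA with a 5′ triphosphate. DDX58 stood at 39.8, 38.6, 40.1 and 39.5 FPKM in ancestral libraries on soft ECM and at 60.5, 72.6, 72.6 and 79.8 in soft-selected libraries. On stiff ECM the same gene had 39.7, 39.7, 41.01 and 35.6 FPKM in ancestral and 69.2, 61.9, 60.7 and 66.03 in stiff-selected libraries. Every selected library thus lay above every ancestral library. How many of all genes stood apart in this way, here or for the genes below, was not counted. DDX58 was higher by 0.83 ± 0.07 (SE) on the log2 scale in soft-selected cells (limma, adjusted p = 7.68e-08) and by 0.71 ± 0.07 in stiff-selected cells (adjusted p = 8.89e-07), or 1.81 and 1.65 times by the ratio of mean FPKM.

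IFIH1 encodes MDA5, the sensor of long double-stranded RNA. IFIH1 read 17.5, 18.6, 18.97 and 18.8 FPKM in ancestral libraries on soft ECM and 27.1, 21.4, 28.9 and 31.02 in soft-selected libraries, which did not overlap. On stiff ECM IFIH1 read 16.2, 13.3, 14.01 and 13.4 FPKM in ancestral and 17.2, 16.9, 14.5 and 19.4 in stiff-selected libraries, which did. IFIH1 was higher by 0.52 ± 0.10 (SE) on the log2 scale in soft-selected cells (adjusted p = 3.55e-04), while the difference in stiff-selected cells was 0.24 ± 0.10 (adjusted p = 0.0605). DHX58 (LGP2), which tunes signalling by both RNA sensors, was called in soft-selected cells at 0.34 ± 0.09 (adjusted p = 0.00468) and had 0.23 ± 0.09 in stiff-selected cells (adjusted p = 0.0477). The DHX58 call was lost without ancestral on soft replicate 1 or 4 or soft-selected replicate 1, 3 or 4, with an adjusted p of up to 0.0157.

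DDX60 and its neighbour DDX60L are helicases that aid antiviral defence, and IFI16 binds DNA. Their log2 fold changes in soft-selected cells were 0.38 ± 0.09, 0.40 ± 0.07 and 0.46 ± 0.09 (SE), all called. In stiff-selected cells they were 0.40 ± 0.09, 0.31 ± 0.07 and 0.30 ± 0.09, also called. The DDX60 call on soft ECM was lost without ancestral on soft replicate 1 or soft-selected replicate 4, and that on stiff ECM without ancestral on stiff replicate 2 (adjusted p up to 0.0116 and 0.0102). The IFI16 call on stiff ECM stood at an adjusted p of 0.00921 and was lost under 14 of 24 alternatives, among them leaving out any library except ancestral on stiff replicate 4 and soft-selected replicates 2, 3 and 4 (adjusted p up to 0.04).

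Among the signalling members IRF9 rose in both selected populations, its partner STAT2 was called on stiff ECM only, IRF1 was lower in soft-selected cells and IRF7 was called in neither. IRF9, the DNA-binding subunit of ISGF3, had 23.6, 24.5, 22.98 and 21.6 FPKM in ancestral libraries on soft ECM and 35.7, 37.8, 33.04 and 33.2 in soft-selected libraries. Its levels on stiff ECM were 18.2, 16.4, 17.9 and 18.3 FPKM in ancestral and 26.8, 26.8, 26.8 and 29.9 in stiff-selected libraries. Both selected populations lay wholly above their ancestors. IRF9 was higher by 0.57 ± 0.06 (SE) on the log2 scale on soft ECM (adjusted p = 9.14e-07) and by 0.61 ± 0.06 on stiff ECM (adjusted p = 8.90e-07).

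STAT2, the transactivating subunit of ISGF3, had 48.2, 49.2, 47.8 and 45.4 FPKM in ancestral libraries on soft ECM and 54.9, 44.96, 51.1 and 49.2 in soft-selected libraries. On stiff ECM STAT2 had 35.3, 30.7, 32.2 and 33.6 FPKM in ancestral and 34.7, 39.7, 40.5 and 48.7 in stiff-selected libraries. Both pairs of groups overlapped, with stiff-selected replicate 1 inside the ancestral range. The difference was 0.07 ± 0.08 (SE) on soft ECM (adjusted p = 0.519, 95% interval -0.11 to 0.24). On stiff ECM STAT2 was called at 0.29 ± 0.08 (adjusted p = 0.00749), a call lost under 14 of 24 alternatives, among them leaving out any stiff-selected library but replicate 1, any ancestral library on stiff ECM but replicate 1, or any ancestral library on soft ECM but replicate 4 (adjusted p up to 0.0288).

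IRF1 drives antiviral and antigen presentation genes and responds most to interferon gamma. IRF1 had 73.6, 67.1, 75.3 and 64.6 FPKM in ancestral libraries on soft ECM and 59.2, 51.4, 60.2 and 53.4 in soft-selected libraries, all of which were lower. On stiff ECM the values were 58.03, 55.3, 62.1 and 55.97 FPKM in ancestral and 52.3, 48.98, 45.2 and 58.4 in stiff-selected libraries, which overlapped. IRF1 fell by 0.32 ± 0.08 (SE) on the log2 scale in soft-selected cells (adjusted p = 0.00207) and differed by -0.18 ± 0.08 in stiff-selected cells (adjusted p = 0.0665). IRF7, the amplifier of type I interferon production, read 19.7, 20.5, 18.9 and 16.05 FPKM in ancestral libraries on soft ECM and 24.9, 20.2, 19.4 and 18.4 in soft-selected libraries. On stiff ECM IRF7 read 14.03, 14.6, 17.1 and 13.5 FPKM in ancestral and 15.6, 14.99, 14.1 and 17.5 in stiff-selected libraries. These ranges overlapped on both ECMs, with differences of 0.13 ± 0.10 (adjusted p = 0.275) and 0.07 ± 0.10 (adjusted p = 0.597).

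**Figure D3:**
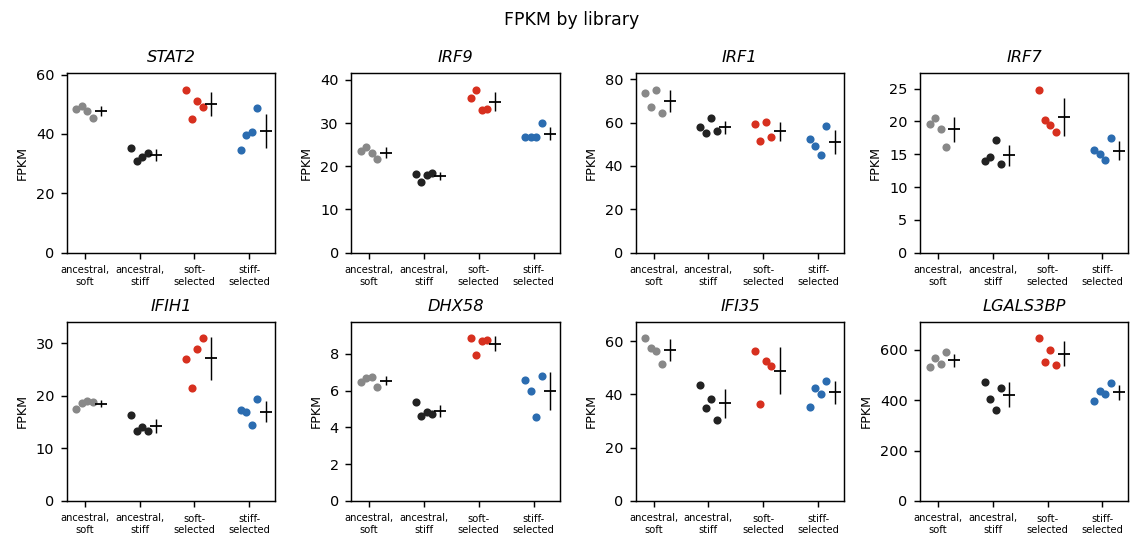
FPKM in each library of the regulators STAT2, IRF9, IRF1 and IRF7, the sensors IFIH1 and DHX58, and IFI35 and LGALS3BP, with the mean and SD of the 4 libraries of each group drawn beside the points. IRF9 lies highest in soft-selected cells (33.0 to 37.8 FPKM) and lowest in ancestral cells on stiff ECM (16.4 to 18.3 FPKM), and LGALS3BP lies higher in both groups on soft ECM than in both groups on stiff ECM.

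IFIT proteins bind foreign RNA and hold back its translation, and their genes lie side by side on chromosome 10. Among them IFIT1, IFIT2 and IFIT3 rose in both selected populations and IFIT5 was called in neither. IFIT1 had 88.98, 96.8, 91.6 and 89.3 FPKM in ancestral libraries on soft ECM and 144, 147, 154 and 184 in soft-selected libraries. On stiff ECM IFIT1 had 86.2, 71.95, 78.7 and 66.4 FPKM in ancestral and 134, 117, 101 and 129.6 in stiff-selected libraries. No selected library overlapped its ancestors. The log2 fold changes of IFIT1 were 0.77 ± 0.09 (SE, adjusted p = 4.03e-06) on soft and 0.66 ± 0.09 (adjusted p = 3.09e-05) on stiff ECM.

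IFIT2, which can push infected cells towards death, read 53.9, 54.5, 55.4 and 54.03 FPKM in ancestral libraries on soft ECM and 90.1, 103, 88.3 and 98.2 in soft-selected libraries. On stiff ECM IFIT2 read 50.2, 45.4, 47.8 and 43.3 FPKM in ancestral and 78.4, 63.4, 55.9 and 68.6 in stiff-selected libraries. The groups stood apart on both ECMs, by 0.79 ± 0.08 (SE, adjusted p = 5.47e-07) and 0.49 ± 0.08 (adjusted p = 1.05e-04) on the log2 scale. IFIT3, which stabilises IFIT1 on RNA, went from 104, 102, 102 and 93.6 FPKM in ancestral libraries on soft ECM to 147, 171, 158 and 199 in soft-selected libraries. On stiff ECM IFIT3 went from 96.5, 90.7, 97.5 and 75.5 FPKM in ancestral to 168, 139.8, 124 and 152 in stiff-selected libraries. These ranges did not overlap either, with log2 fold changes of 0.74 ± 0.10 (adjusted p = 1.22e-05) and 0.69 ± 0.10 (adjusted p = 3.79e-05). IFIT5 stayed between 30.5 and 38.5 FPKM in all 16 libraries, with differences of 0.11 ± 0.06 (95% interval -0.02 to 0.24) and 0.09 ± 0.06 (95% interval -0.04 to 0.22). IFIT genes, like the OAS, MX, DDX60, SAMD9 and IFI44 pairs below, have near copies that may share reads, and how such reads were counted is not given in the sources used here.

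OAS enzymes make 2′-5′ oligoadenylate, which switches on RNase L, while OASL lacks that activity and aids RIG-I. OAS2 and OASL rose in both selected populations, OAS3 was called on soft ECM only, and OAS1 in neither. OAS2 had 10.7, 11.2, 10.8 and 9.88 FPKM in ancestral libraries on soft ECM and 26.2, 16.4, 23.5 and 23.5 in soft-selected libraries. On stiff ECM OAS2 had 8.33, 7.42, 7.86 and 7.54 FPKM in ancestral and 15.5, 15.2, 13.96 and 17.7 in stiff-selected libraries. Soft-selected replicate 2 was the lowest of its group by far and still above all ancestral libraries, and OAS2 was higher by 0.99 ± 0.11 (SE, adjusted p = 1.003e-06) on soft and by 0.91 ± 0.11 (adjusted p = 4.50e-06) on stiff ECM.

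OASL had 43.6, 40.7, 38.9 and 35.9 FPKM in ancestral libraries on soft ECM and 69.7, 70.7, 68.9 and 76.8 in soft-selected libraries. Its values on stiff ECM were 30.9, 25.4, 27.9 and 23.9 FPKM in ancestral and 57.6, 48.6, 39.7 and 56.6 in stiff-selected libraries. Both pairs stood apart, with log2 fold changes of 0.83 ± 0.10 (SE, adjusted p = 3.50e-06) and 0.87 ± 0.10 (adjusted p = 4.16e-06). OAS3 differed by 0.42 ± 0.08 (adjusted p = 4.28e-04) on soft and by 0.14 ± 0.08 (adjusted p = 0.183) on stiff ECM. OAS1, at 0.816 to 3.47 FPKM the least abundant OAS gene, differed by 0.18 ± 0.16 (adjusted p = 0.369) and -0.03 ± 0.16 (adjusted p = 0.905). The MX genes, whose GTPases trap viral capsids, were called in neither, with MX1 at 0.20 ± 0.14 and 0.32 ± 0.14 and MX2 at 0.08 ± 0.11 and 0.14 ± 0.11.

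**Figure D4:**
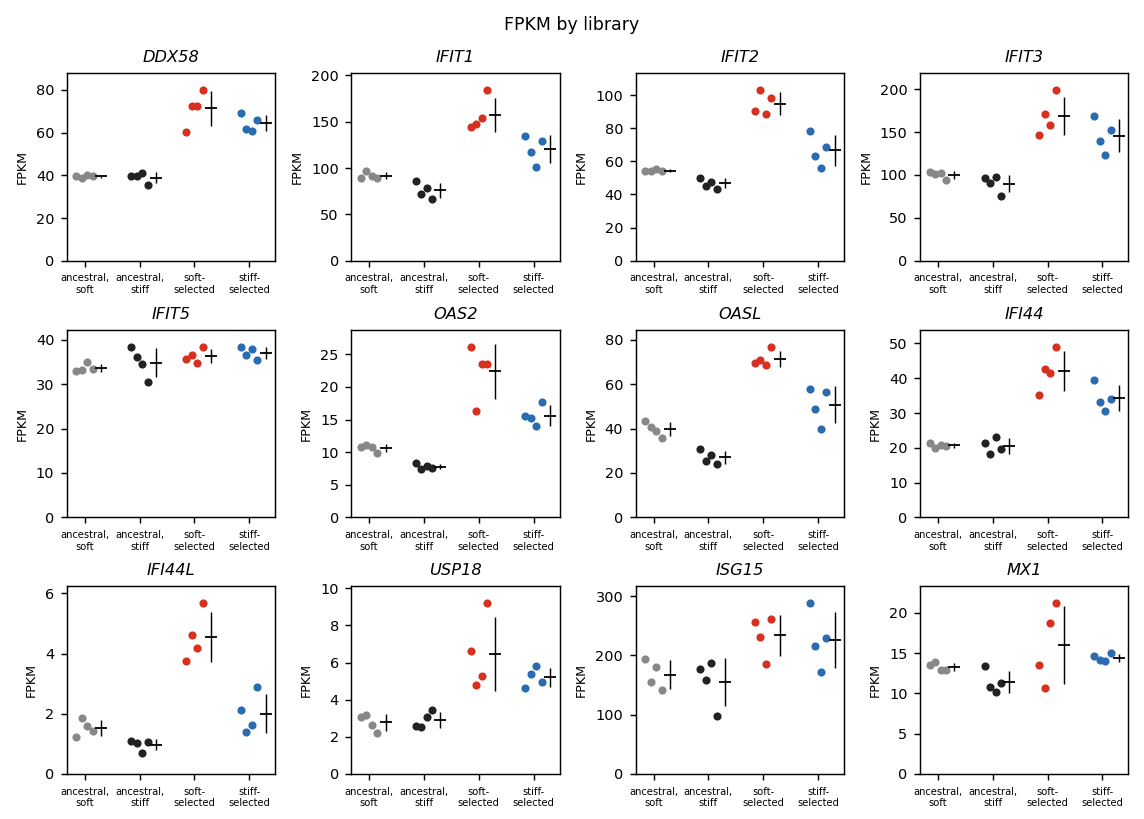
FPKM in each library of 12 ISGs, with the mean and SD of the 4 libraries of each group drawn beside the points. DDX58, IFIT1, IFIT2, IFIT3, OAS2, OASL, IFI44, IFI44L and USP18 separate each selected population from its ancestors. IFIT5 at 30.5 to 38.5 FPKM, ISG15 at 97.9 to 288 FPKM and MX1 at 10.2 to 21.2 FPKM were not called. Stiff-selected libraries of MX1 nevertheless all lay above their ancestors.

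ISG15 is a ubiquitin-like modifier, joined to proteins by UBE2L6 and HERC5 and taken off again by USP18, which also blocks the interferon receptor. USP18 rose in both selected populations and UBE2L6 was lower in soft-selected cells. USP18 had 3.07, 3.17, 2.61 and 2.22 FPKM in ancestral libraries on soft ECM and 6.62, 4.78, 5.27 and 9.19 in soft-selected libraries. On stiff ECM USP18 had 2.60, 2.54, 3.06 and 3.44 FPKM in ancestral and 4.65, 5.39, 5.83 and 4.96 in stiff-selected libraries. All selected libraries were above all ancestral ones, and the log2 fold changes were 0.96 ± 0.14 (SE, adjusted p = 3.23e-05) and 0.67 ± 0.14 (adjusted p = 0.00115).

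UBE2L6, the conjugating enzyme, had 78.2, 77.9, 79.7 and 83.3 FPKM in ancestral libraries on soft ECM and 57.7, 37.8, 74.1 and 60.2 in soft-selected libraries. On stiff ECM UBE2L6 had 62.5, 55.9, 47.7 and 60.2 FPKM in ancestral and 40.97, 45.5, 41.4 and 51.04 in stiff-selected libraries. Soft-selected libraries were all lower but ranged widely. UBE2L6 fell by 0.50 ± 0.14 (SE) in soft-selected cells (adjusted p = 0.00569), and this call was lost under 9 of 24 alternatives, among them leaving out any ancestral library on soft ECM or soft-selected replicate 1 or 2 (adjusted p up to 0.0204). In stiff-selected cells the UBE2L6 difference was -0.33 ± 0.14 (adjusted p = 0.0608).

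HERC6, a ligase gene next to HERC5, read 11.4, 11.9, 11.7 and 11.6 FPKM in ancestral libraries on soft ECM and 18.8, 17.1, 17.9 and 17.4 in soft-selected libraries. On stiff ECM HERC6 read 10.7, 10.8, 11.5 and 10.8 FPKM in ancestral and 16.7, 13.2, 10.6 and 15.5 in stiff-selected libraries, which overlapped through replicate 3. HERC6 was higher by 0.57 ± 0.09 (SE, adjusted p = 9.60e-05) on soft ECM and differed by 0.31 ± 0.09 (adjusted p = 0.013) on stiff ECM. ISG15 itself differed by 0.48 ± 0.18 (adjusted p = 0.0341) and 0.56 ± 0.18 (adjusted p = 0.018), with overlapping libraries on both ECMs. HERC5 differed by 0.03 ± 0.09 and 0.18 ± 0.09 and TRIM25, which activates RIG-I, by 0.10 ± 0.06 and 0.14 ± 0.06, with no call.

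Of the other antiviral effectors tested, 3 of 9 were higher and 0 lower in soft-selected cells, beside 21.5% and 15.4% of all genes. In stiff-selected cells 1 was higher and 1 lower, beside 18.4% and 10.8% of all genes, so this role showed no excess of higher genes there. The median log2 fold changes of the 9 were 0.02 and -0.18, against 0.04 and 0.05 over all genes. SP100, a component of nuclear bodies that restrict DNA viruses, had 23.3, 24.6, 24.7 and 24.7 FPKM in ancestral libraries on soft ECM and 34.1, 34.3, 38.5 and 37.5 in soft-selected libraries. On stiff ECM SP100 had 25.5, 25.1, 25.6 and 25.5 FPKM in ancestral and 32.6, 32.5, 34.8 and 32.2 in stiff-selected libraries. Replicates of SP100 lay close together, and its log2 fold changes of 0.55 ± 0.05 (SE, adjusted p = 1.81e-07) and 0.36 ± 0.05 (adjusted p = 2.77e-05) had the smallest standard error of the 45 ISGs.

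ISG20, an exonuclease of single-stranded RNA, had 9.53, 7.86, 9.37 and 7.19 FPKM in ancestral libraries on soft ECM and 15.005, 17.2, 15.3 and 13.4 in soft-selected libraries. On stiff ECM ISG20 had 7.42, 7.52, 6.19 and 5.88 FPKM in ancestral and 9.16, 8.78, 6.73 and 7.09 in stiff-selected libraries. Soft-selected libraries stood above the other 12, and the stiff-selected ones overlapped their ancestors. ISG20 was higher by 0.78 ± 0.11 (SE, adjusted p = 1.99e-05) on soft ECM and differed by 0.20 ± 0.11 (adjusted p = 0.145) on stiff ECM. SAMD9, a restriction factor of poxviruses, had 17.9, 20.2, 18.4 and 20.5 FPKM in ancestral libraries on soft ECM and 25.96, 29.3, 29.3 and 31.8 in soft-selected libraries. On stiff ECM SAMD9 had 20.05, 20.4, 20.3 and 20.8 FPKM in ancestral and 25.4, 22.8, 21.8 and 23.9 in stiff-selected libraries. SAMD9 did not overlap on either ECM but was called on soft ECM only, by 0.57 ± 0.07 (adjusted p = 2.44e-06) against 0.19 ± 0.07 (adjusted p = 0.0255) on stiff ECM.

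EIF2AK2, the kinase PKR that halts translation on double-stranded RNA, fell by 0.30 ± 0.07 (SE) in stiff-selected cells (adjusted p = 0.00225) and differed by -0.10 ± 0.07 in soft-selected cells (adjusted p = 0.231). The editing enzyme ADAR, RSAD2 (viperin), the tether BST2, SAMD9L and the antibody receptor TRIM21 were called in neither, with log2 fold changes of 0.10 ± 0.06, -0.07 ± 0.19, -0.32 ± 0.11, 0.02 ± 0.09 and 0.01 ± 0.09 in soft-selected cells. In stiff-selected cells the same 5 genes had 0.10 ± 0.06, -0.20 ± 0.19, -0.20 ± 0.11, -0.20 ± 0.09 and -0.18 ± 0.09. PARP9, PARP14 and DTX3L, which act in ADP-ribosylation and ubiquitination during antiviral signalling, were called in neither. Their values were 0.19 ± 0.07, 0.04 ± 0.10 and -0.07 ± 0.07 in soft-selected and 0.02 ± 0.07, -0.04 ± 0.10 and -0.21 ± 0.07 in stiff-selected cells. Some genes stood apart without a call. Soft-selected libraries all lay below their ancestors for BST2 and above for PARP9. Stiff-selected libraries all lay below for SAMD9L and above for ADAR.

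IFI44 and IFI44L are neighbours on chromosome 1, and IFI44L had the largest log2 fold change of the 45 ISGs in soft-selected cells. IFI44 had 21.4, 19.8, 20.9 and 20.6 FPKM in ancestral libraries on soft ECM and 35.3, 42.7, 41.4 and 49.03 in soft-selected libraries. On stiff ECM IFI44 had 21.4, 18.1, 23.1 and 19.6 FPKM in ancestral and 39.5, 33.05, 30.6 and 34.01 in stiff-selected libraries. Neither pair overlapped, and IFI44 was higher by 0.98 ± 0.09 (SE, adjusted p = 2.34e-07) and 0.71 ± 0.09 (adjusted p = 1.39e-05) on the log2 scale.

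IFI44L was far less abundant, at 1.22, 1.84, 1.61 and 1.42 FPKM in ancestral libraries on soft ECM and 3.76, 4.60, 4.19 and 5.67 in soft-selected libraries. On stiff ECM IFI44L had 1.08, 1.04, 0.707 and 1.06 FPKM in ancestral and 2.13, 1.38, 1.62 and 2.87 in stiff-selected libraries. The groups stood apart on both ECMs. IFI44L was higher by 1.13 ± 0.14 (SE, adjusted p = 4.60e-06) on soft ECM, a ratio of 2.99 in mean FPKM, and by 0.59 ± 0.14 (adjusted p = 0.00272) on stiff ECM, a ratio of 2.06. The IFI44L call on stiff ECM was lost without ancestral on stiff replicate 3 or stiff-selected replicate 4 and after quantile normalization (adjusted p up to 0.0593). The other members of this role, IFI6, IFI27, IFI35, XAF1 and LGALS3BP, were called in neither, with log2 fold changes between -0.24 and 0.36.

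The effect of selection on soft ECM was then compared with that on stiff ECM. By limma 0 of the 45 ISGs, and 0 of all 12604 genes, differed between these effects. An unadjusted p under 0.05 was found for 7 of the 45 ISGs and for 1627 of the 12604 genes, a similar share. Voom also called 0 ISGs. ISG20 and SAMD9, called on soft ECM only, had the smallest p, with a difference between effects of 0.57 ± 0.16 (SE, adjusted p = 0.132) and 0.38 ± 0.09 (adjusted p = 0.0999). The ISGs called on soft ECM only, IFIH1, DHX58, OAS3, HERC6, ISG20 and SAMD9, were therefore not shown to respond otherwise on stiff ECM.

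ISGs were next compared between soft and stiff ECM. In ancestral cells 6 of the 45 were higher on soft ECM and 0 lower, beside 7.54% of all genes tested higher and 3.87% lower (11.4% in either direction). Soft-selected cells had 13 ISGs higher than stiff-selected cells and 0 lower, beside 3.85% of all genes higher and 2.59% lower (6.43% in either direction). An unadjusted p under 0.05 in either direction was found for 24 ISGs in ancestral cells, beside 4819 of the 12604 genes. Between the selected populations it was found for 29 ISGs, beside 4201 of the 12604 genes. The median log2 fold change of the ISGs was 0.22 in ancestral and 0.29 in selected cells, against 0.03 and 0.02 over all genes. Voom called 7 and 12 ISGs higher and 0 lower. DHX58, IRF9, OASL and LGALS3BP were called in both comparisons, and the share of all genes called in both was not counted.

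Both counts moved with the libraries in the fit, and so did the counts over all genes tested. The main fit used a spread per gene shared by all 16 libraries, so its p-values also rest on groups outside a comparison. With only the compared groups fitted, 13 ISGs were higher on soft ECM in ancestral cells and 1 (ISG20) in selected cells. The other 12 calls between the selected populations were lost in that fit. Of all genes 1391 were then higher in ancestral cells in place of 950, and 79 in selected cells in place of 485. Leaving out soft-selected replicate 2 gave 11 ISGs in ancestral and 21 in selected cells, beside 1187 and 636 of all genes. Without stiff-selected replicate 4 the ancestral count was 9 (994 of all genes). Without soft-selected replicate 3 or stiff-selected replicate 2 the selected count was 8 (212 and 211 of all genes). It was 4 in ancestral cells without ancestral on stiff replicate 2 (408 of all genes). With soft-selected replicate 2 and stiff-selected replicate 4 both left out, the counts were 12 and 22, beside 1237 and 809 of all genes. Soft-selected replicate 2 was the lowest of its group in 25 ISGs and stiff-selected replicate 4 the highest in 24. Leaving out this pair by itself favours a higher ISG count in soft-selected than stiff-selected cells. The leukocyte and endothelial marker sums were also higher on soft than on stiff ECM in ancestral cells, without overlap, where CSF1R was called at 0.46 ± 0.08 (SE, adjusted p = 8.31e-04) and PECAM1 at 0.47 ± 0.12 (adjusted p = 0.00924), and their part in these results was not tested.

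**Figure D5:**
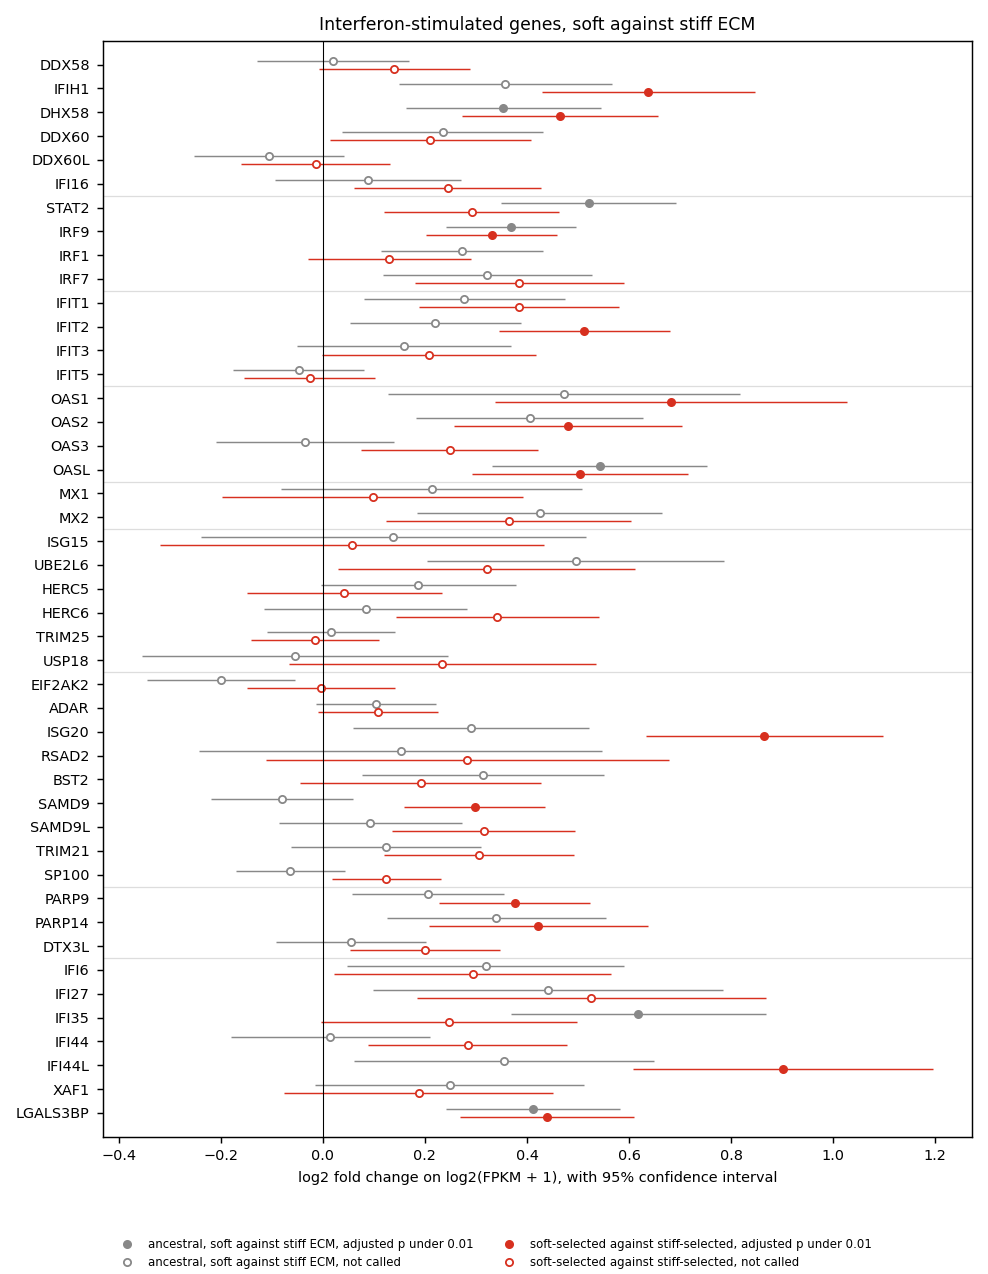
Log2 fold change on log2(FPKM + 1) of the 45 ISGs, with 95% confidence intervals from limma, for ancestral cells on soft against stiff ECM (grey) and soft-selected against stiff-selected cells (red), 4 libraries a group; filled points are calls at an adjusted p under 0.01. Of the 45 ISGs 38 lie above 0 in ancestral and 41 in selected cells, and the share of all genes above 0 was not counted. ISG20 and IFI44L reach 0.87 and 0.90 between the selected populations.

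STAT2 and IRF9 were higher on soft than on stiff ECM in ancestral cells, as their values above show. STAT2 differed by 0.52 ± 0.08 (SE, adjusted p = 5.58e-04) and IRF9 by 0.37 ± 0.06 (adjusted p = 7.00e-04), and neither gene's libraries overlapped between the ECMs. Between selected populations IRF9 differed by 0.33 ± 0.06 (adjusted p = 0.00193) and STAT2 by 0.29 ± 0.08, which was not called (adjusted p = 0.0211). IRF9 thus rose in all 4 comparisons, in the order ancestral on stiff, ancestral on soft, stiff-selected and soft-selected, and no neighbours in this order overlapped. IRF1 differed by 0.27 ± 0.08 (adjusted p = 0.0149) in ancestral and 0.13 ± 0.08 (adjusted p = 0.24) in selected cells, and IRF7 by 0.32 ± 0.10 (adjusted p = 0.0231) and 0.39 ± 0.10 (adjusted p = 0.0128).

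IFI35, an interferon-induced leucine zipper protein, had 61.3, 57.6, 56.3 and 51.4 FPKM in ancestral libraries on soft and 43.5, 34.8, 38.2 and 30.6 on stiff ECM. The selected libraries had 56.5, 36.4, 52.4 and 50.7 FPKM on soft and 35.2, 42.4, 40.2 and 45.2 on stiff ECM. IFI35 stood apart in ancestral cells, by 0.62 ± 0.12 (SE, adjusted p = 0.00182), and overlapped in selected cells, where soft-selected replicate 2 lay among the stiff-selected libraries and the difference was 0.25 ± 0.12 (adjusted p = 0.156). LGALS3BP, a secreted galectin ligand and the most abundant ISG of the list, ranged from 532 to 592 FPKM in ancestral cells on soft ECM and from 363 to 474 on stiff. In selected cells LGALS3BP ranged from 541 to 648 FPKM on soft and from 395 to 468 on stiff ECM. It differed by 0.41 ± 0.08 (adjusted p = 0.00208) and 0.44 ± 0.08 (adjusted p = 0.00197) between ECMs, and by only 0.06 ± 0.08 and 0.03 ± 0.08 between selected and ancestral cells. The ancestral call of LGALS3BP was lost without ancestral on stiff replicate 2 (adjusted p = 0.0101).

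OASL differed between ECMs by 0.54 ± 0.10 (SE, adjusted p = 0.00145) in ancestral and 0.50 ± 0.10 (adjusted p = 0.00321) in selected cells. The latter call was lost without stiff-selected replicate 2 and with only the compared groups fitted. DHX58 differed by 0.35 ± 0.09 (adjusted p = 0.00983) and 0.46 ± 0.09 (adjusted p = 0.00293). The ancestral DHX58 call was lost under 15 of 24 alternatives, among them leaving out any library except ancestral on stiff replicate 1, soft-selected replicate 2 and stiff-selected replicates 1, 3 and 4 (adjusted p up to 0.0948). The selected one was lost without soft-selected replicate 3 and with only the compared groups fitted.

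Soft-selected cells also exceeded stiff-selected cells in IFIH1, by 0.64 ± 0.10 (SE, adjusted p = 6.43e-04), and in IFIT2, by 0.51 ± 0.08 (adjusted p = 6.43e-04). ISG20 differed by 0.87 ± 0.11 (adjusted p = 1.54e-04) and IFI44L by 0.90 ± 0.14 (adjusted p = 6.39e-04), the largest values of this comparison. PARP9 differed by 0.38 ± 0.07 (adjusted p = 0.00216). None of these 5 overlapped between the populations, and how many of all genes did not overlap was not counted. SAMD9 differed by 0.30 ± 0.07 (adjusted p = 0.00613), a call lost under 7 of 24 alternatives, among them quantile normalization and leaving out soft-selected replicate 3 or 4 or stiff-selected replicate 2 or 3 (adjusted p up to 0.0377).

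OAS1 had 1.60, 2.35, 1.75 and 1.92 FPKM in ancestral libraries on soft and 1.54, 1.09, 0.816 and 0.954 on stiff ECM. The selected libraries had 1.801, 1.38, 3.47 and 2.89 FPKM on soft and 1.02, 0.934, 0.896 and 1.36 on stiff ECM. Soft-selected replicates 3 and 4 were the highest of all 16 libraries and replicate 2 stood next to the stiff-selected ones. OAS1 was called between selected populations at 0.68 ± 0.16 (SE, adjusted p = 0.00977), as were OAS2 at 0.48 ± 0.11 (adjusted p = 0.0059) and PARP14 at 0.42 ± 0.10 (adjusted p = 0.0099). These 3 calls were lost under 18, 8 and 19 of 24 alternatives. Each was lost without any single one of soft-selected replicates 1, 3 and 4 and stiff-selected replicates 1, 2 and 3, and OAS1 and PARP14 also without most single ancestral libraries (adjusted p up to 0.0454, 0.0412 and 0.0544).

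Neighbouring ISGs were called alike in some pairs and not in others, by the order of protein-coding genes in RefSeq. IFIT1 and IFIT5 are neighbours, as are SAMD9 and SAMD9L, HERC6 and HERC5, and OAS3 and OAS1, and in each pair the first gene was called higher in soft-selected cells and the other was not. DDX60 with DDX60L, IFI44 with IFI44L, IFIT2 with IFIT3 and OAS3 with OAS2 were neighbours that were both called higher there. PARP9 and DTX3L, and MX1 and MX2, were neighbours with no call in either selected population. In all, 16 of the 45 ISGs were called in none of these 4 comparisons, among them ISG15, MX1, MX2, BST2, IRF7, IFI6, IFI27 and RSAD2. The share of all genes called in none of the 4 was not counted.

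The rest of the pathway was read from lists of its ligands, receptors, regulators and adaptors. Their counts stand beside the shares of all genes given above, 21.5% higher and 15.4% lower in soft-selected cells, 18.4% and 10.8% in stiff-selected cells, 7.54% and 3.87% on soft ECM in ancestral cells and 3.85% and 2.59% between the selected populations. Of the 21 interferon genes found, 0 passed the filter. IFNB1, IFNW1 and the 13 interferon alpha genes had 0 reads in all 16 libraries, which allows up to 3 reads in each by counting error alone. IFNL1, a type III interferon, gave 90 reads over all libraries, with 1, 3, 1 and 7 in ancestral libraries on soft ECM, 1, 2, 6 and 0 on stiff, 13, 17, 9 and 3 in soft-selected and 15, 8, 0 and 4 in stiff-selected libraries. These ranges overlapped and IFNL1 was not tested.

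Receptors and their kinases were 9 tested genes, with 3 lower and 0 higher in soft-selected cells and 1 lower in stiff-selected cells, the latter near the 10.8% of all genes. IFNGR2, a chain of the interferon gamma receptor, fell by 0.63 ± 0.09 (SE, adjusted p = 1.88e-05) and by 0.44 ± 0.09 (adjusted p = 8.08e-04). IFNAR2, a chain of the type I receptor, fell by 0.38 ± 0.09 (adjusted p = 0.00135) in soft-selected cells, as did IFNGR1, by 0.31 ± 0.08 (adjusted p = 0.00473). TYK2 was the 1 gene of this list higher on soft ECM in ancestral cells, by 0.24 ± 0.05 (adjusted p = 0.00485), and 0 were called between the selected populations.

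Among 11 tested STATs, IRFs and feedback inhibitors outside the 46, 4 were higher and 1 lower in soft-selected cells and 1 was higher in stiff-selected cells, a smaller share than the 18.4% of all genes. SOCS1, an inhibitor of the JAK kinases, was higher in both, by 1.06 ± 0.12 (SE, adjusted p = 1.75e-06) and 0.56 ± 0.12 (adjusted p = 0.00116). PTPN6 and SOCS3 were the 2 genes of this list higher on soft ECM in ancestral cells, and PTPN6 the 1 gene higher in soft-selected than stiff-selected cells. Of 10 tested adaptors and kinases of nucleic acid sensing, 2 were higher in each selected population, near the shares of all genes (21.5% and 18.4%), and 2 were higher and 1 lower on soft ECM in ancestral cells, and 0 were called between the selected populations. The DNA exonuclease TREX1 was higher in both, by 0.42 ± 0.09 (adjusted p = 7.45e-04) and 0.44 ± 0.09 (adjusted p = 5.86e-04), and TMEM173, which encodes STING, was higher in stiff-selected cells, by 0.62 ± 0.08 (adjusted p = 2.13e-05), and in ancestral cells on soft against stiff ECM, by 0.73 ± 0.08 (adjusted p = 1.51e-04).

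A further list of 53 tested interferon-induced genes had 14 higher and 6 lower in soft-selected cells, beside 21.5% and 15.4% of all genes, and 9 higher and 5 lower in stiff-selected cells, beside 18.4% and 10.8%. These counts were near the shares of all genes. The median log2 fold changes were 0.06 and -0.02, against 0.20 and 0.19 in the 45 ISGs. ZC3HAV1, the antiviral protein ZAP, was higher by 0.84 ± 0.05 (SE, adjusted p = 2.57e-09) and 0.69 ± 0.05 (adjusted p = 4.74e-08), and MLKL, an effector of necroptosis, by 0.87 ± 0.08 and 0.63 ± 0.08. PSMB8, a subunit of the immunoproteasome, fell by 0.69 and 0.78, and APOL6 fell by 0.60 and 0.69. On soft against stiff ECM 9 genes of this list were higher in each comparison, with 2 lower in ancestral and 1 lower in selected cells, beside 7.54% and 3.85% of all genes higher. GBP2, a guanylate-binding protein, was higher in both, by 0.75 ± 0.14 (adjusted p = 0.00139) and 0.69 ± 0.14 (adjusted p = 0.00322), and CD274, which encodes PD-L1, fell by 0.42 and 0.60.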

How the data were processed

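Total RNA, depleted of ribosomal RNA, was sequenced as read pairs in 16 libraries. The authors deposited 1 table of FPKM, with 19468 genes and 0 sample columns left aside here. STAR and hg19 stand in the submitters' processing notes with no version. The counting tool and gene annotation were not given in the sources used here. Members, their roles and all other lists were chosen with earlier results of these data known, so no pattern here is independent support.

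Whole reads could be recovered from the steps of the FPKM values (100% of genes, within 0.001 reads), which gave 34284794 to 55473023 reads per library. Tests used limma 3.58.1 in R 4.3.3 with a trended prior on log2(FPKM + 1) of genes with at least 1 FPKM in at least 4 libraries, 1 fit of 4 group means and Benjamini-Hochberg adjustment at 0.01. With a pseudocount of 1, changes of weakly expressed genes come out too small. A log2 fold change is the difference of group means on that scale, n = 4 a group. Replicates differed by more than counting noise in every pair of a group, so no library was counted as a duplicate. Every member that passed the filter is named, and values in every library are given for members called with a log2 fold change of at least 0.5 and for STAT2, IRF1, IRF7, IRF9, DDX58 and IFIH1. Alternatives were a pseudocount of 0.1, no filter, TPM, quantile normalization, only the compared groups, the replicate number as a block, limma's voom on recovered reads with TMM library sizes, leaving out each library, and leaving out soft-selected replicate 2 with stiff-selected replicate 4. Promoter sequences and gene order came from RefSeq, GRCh38.p14. Steps were tested on simulated data, and Python 3.11.15 was used for the rest. Some genes of the lists are counted but not reported by name here.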

Additional observations from a re-analysis of the deposited data

Results flagged for a closer look

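In 9 of 180 groups of 4 libraries, 1 library stood apart from the other 3 by Dixon's criterion at 95%, which chance gives in about 1 of 20 groups, or 9 of 180. In stiff-selected cells these were IRF9 in replicate 4 at 29.9 FPKM (others 26.8), RSAD2 in replicate 1 at 4.48 FPKM (others 2.57 to 2.73), TRIM21 in replicate 3 at 12.2 FPKM (others 13.4 to 13.6) and SP100 in replicate 3 at 34.8 FPKM (others 32.2 to 32.6). In soft-selected cells HERC5 in replicate 4 stood at 35.8 FPKM (others 24.8 to 26.7). In ancestral cells on stiff ECM ADAR in replicate 3 stood at 89.5 FPKM (others 95.4 to 96.2) and IFI44L in replicate 3 at 0.707 FPKM (others 1.04 to 1.08). In ancestral cells on soft ECM replicate 1 stood at 11.1 FPKM for SAMD9L (others 12.3 to 12.4) and 23.3 FPKM for SP100 (others 24.6 to 24.7). The IFI44L value is the lowest of the 16 libraries and enters both comparisons with ancestral cells on stiff ECM.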

How the results depend on the processing

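Of 57 ISG calls over the 4 comparisons, 36 were kept under all 24 alternatives, 21 were lost under at least 1 and 0 reversed. With only the compared groups in the fit, ISGs higher on soft ECM numbered 13 in ancestral cells (6 with all groups) and 1 in selected cells (13 with all groups). That fit takes the spread from the compared groups alone, and the cause of the change was not tested. No value for the difference between effects exists under that alternative. With soft-selected replicate 2 and stiff-selected replicate 4 left out, ISGs higher on soft ECM numbered 12 in ancestral and 22 in selected cells. Stiff-selected cells then had 3 ISGs lower in place of 1, and the median log2 fold change in soft-selected cells was 0.36 in place of 0.20. Leaving out this pair by itself favours higher ISG levels in soft-selected than stiff-selected cells. ISGs lower in soft-selected cells numbered 1 with no filter, with TPM and with only the compared groups, and 3 with voom, in place of 2, and voom gave 2 lower in stiff-selected cells in place of 1. Leaving out each library in turn gave 18 to 21 higher and 1 to 3 lower in soft-selected cells (median 0.17 to 0.36), 12 to 16 higher and 1 to 2 lower in stiff-selected cells (median 0.17 to 0.23), 4 to 11 higher on soft ECM in ancestral cells (median 0.19 to 0.27), 8 to 21 higher in soft-selected than stiff-selected cells (median 0.24 to 0.34), and 0 for the difference between effects (median 0.03 to 0.13). Counts of all genes called higher on soft ECM moved as well, as given above.

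Replicate numbers are shared by the groups. Deviations of same-numbered libraries correlated at -0.19 to 0.31 over 24 pairs and exceeded 0.1 in 7. With 4 libraries a group this cannot decide whether some libraries of the same number were linked, and the main fit did not pair them. With the replicate block 21 ISGs were higher and 2 lower in soft-selected cells, 15 higher and 1 lower in stiff-selected cells, 5 higher on soft ECM in ancestral and 12 in selected cells. Leaving out any single library, 0 ISGs were called lower on soft than on stiff ECM. CMPK2 and the interferon genes did not pass the filter on FPKM, and no test of them is given.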
